A study of Mus musculus with 16 samples.

Results

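Transcription factors that set up and maintain photoreceptor identity were followed in whole retina of C57BL6 mice, a common inbred laboratory strain, in both sexes at 2 ages. The 10 genes were Crx, Nrl, Nr2e3, Otx2, Rorb, Thrb, Neurod1, Prdm1, Samd7 and Esrrb. Their probes were found by gene symbol in the annotation of the deposited array table, which gave 12 of the 25697 probes, with 2 probes each for Rorb and Prdm1 and 1 for each of the other genes. The 16 arrays came from 4 male aged, 4 male young, 4 female aged and 4 female young samples. The labels give 24 months for aged and 3 months for young, and state that all mice aged with no genetic change and no drug. An exception is male aged 1, called aged in its title and given 12 months in its age field, which was kept in the aged group. The comparisons ask whether the message of each factor differs with age within each sex, and between the sexes at each age.

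Rods and cones arise from progenitors under a cascade of such factors. Otx2 opens the photoreceptor path, Crx then drives the genes of light detection in both rods and cones, and Nrl with its target Nr2e3 steers the cell to the rod fate and keeps cone genes silent, while the retinal form of the thyroid hormone receptor gene Thrb is needed for the green cone opsin. In the adult mouse retina most of them are still made by photoreceptors, where they hold the expression of transducin and other outer segment genes.

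Samples were hybridised to single-colour Illumina BeadChips, on which the light from labelled complementary RNA bound to beads gives the level of a probe. Array means lay between 158 and 240 intensity units, and a detection p-value under 0.05 was reached by 52.6% to 57.0% of probes. A probe was tested if that held on at least 4 of the 16 arrays, which left 15016 probes of 11025 genes. Levels below are log2 normalised intensities, and differences are on the same log2 scale, each with its standard error (SE) from a limma model over all 16 arrays. P-values were adjusted by the Benjamini-Hochberg method over the 15016 probes, and a probe was called below 0.05. Nothing in the labels ties the samples of a group to separate animals, so p-values here reflect only how these samples vary, which may be technical. The number of arrays limits the precision. Arrays lay on 5 slides, and all but slide 5, which held female young 4 alone, carried more than 1 group. The 5 rod markers were all measured and bright in every group, with mean levels per array of 12.67 to 12.84 in male aged, 12.68 to 12.79 in male young, 12.72 to 12.91 in female aged and 12.74 to 12.86 in female young retina.

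The start regions of 3 genes are shown because the differences described below concern Samd7 and Rorb, and because Crx is the factor best known for binding the TAATCC word. They are RefSeq promoters of build GRCm38.p6, from 250 bases before to 50 bases after an annotated start, written 5′ to 3′ on the strand of the gene. Capitals mark matches, on either strand, to the 2 words that were found there.
Samd7 (chr3:30746043-30746342, plus strand): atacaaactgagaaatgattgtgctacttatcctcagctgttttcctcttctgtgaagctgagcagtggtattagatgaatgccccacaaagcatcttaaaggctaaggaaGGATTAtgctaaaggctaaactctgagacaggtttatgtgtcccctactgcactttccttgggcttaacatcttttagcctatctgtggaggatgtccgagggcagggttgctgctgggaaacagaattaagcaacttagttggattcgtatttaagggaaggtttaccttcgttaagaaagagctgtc
Crx (chr7:15879906-15880205, minus strand): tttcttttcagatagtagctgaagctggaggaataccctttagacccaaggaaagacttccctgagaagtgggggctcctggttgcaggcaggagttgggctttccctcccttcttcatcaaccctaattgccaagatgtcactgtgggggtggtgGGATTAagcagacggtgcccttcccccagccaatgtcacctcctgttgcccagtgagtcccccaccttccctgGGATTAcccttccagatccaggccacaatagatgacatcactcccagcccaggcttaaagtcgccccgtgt
Rorb (chr19:19111147-19111446, minus strand): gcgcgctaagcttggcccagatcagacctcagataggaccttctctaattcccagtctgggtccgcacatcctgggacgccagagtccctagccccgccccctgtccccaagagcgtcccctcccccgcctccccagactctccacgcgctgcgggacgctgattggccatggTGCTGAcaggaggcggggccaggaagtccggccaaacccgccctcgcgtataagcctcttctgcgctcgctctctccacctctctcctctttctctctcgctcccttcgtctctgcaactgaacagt
The capitals in the Samd7 and Crx lines are GGATTA, the reverse complement of the homeodomain word TAATCC. In Samd7 it spans positions -139 to -134 from the start, and Crx holds it at positions -94 to -89 and again at positions -21 to -16. The capitals in Rorb are TGCTGA, a Maf half-site of the kind Nrl binds, at positions -77 to -72, while the window at the other annotated Rorb start (chr19:19001068-19001367) holds none of the words searched. Over both strands, TAATCC was found in 4 of the 16 promoter windows of the 10 genes and in 7.06% of 32851 windows of that length over all genes. TGCTGA was in 4 of the 16 and in 19.5% of all, the nuclear receptor half-site AGGTCA in 1 and 16.3%, and the E-box CAGATG in 2 and 17.2%. Some genes, such as Otx2, gave several windows, and some of those windows overlap, so the 16 are not separate. Otx2 is counted more than once among the windows with TGCTGA. A match describes these letters and not a binding site. The probe sequences themselves were not used here.

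Samd7 was the factor that differed between groups, and it differed by sex. It was lower in males at both ages, to about the same extent, and showed no called difference with age in either sex. Rorb was lower in aged than in young males by both of its probes without passing the threshold, and Neurod1 varied widely among arrays of every group. Crx, Nrl, Otx2 and Esrrb lay within 0.20 of 0 on the log2 scale in the 4 direct comparisons of age and sex. The probes of Nr2e3, Thrb and Prdm1 read background. Of the 8 tested probes, all detected on 16 of 16 arrays, 1 was called for sex in aged retina, where 0.686% of all tested probes were called, and 1 for sex in young retina, where 0.393% were. With age, 0 of the 8 were called in males, where 0.992% of all probes were called, 0 in females, where 0.633% were, and 0 for the mean of both sexes, where 1.88% were. At an unadjusted p under 0.05 these counts were 1 for sex in aged retina, 2 for sex in young retina, 2 for age in males, 0 for age in females and 2 for the mean of both sexes, against 12.7%, 15.6%, 14.6%, 7.14% and 11.1% of all tested probes. The 2 for age in males, and the 2 for the mean of both sexes, are the 2 probes of Rorb. With 1 probe a gene, each of these 2 counts was 1 of 7. The median difference of the 8 probes was -0.21 for sex in aged and -0.043 for sex in young retina, beside -0.0065 and 0.016 over all tested probes. For age it was -0.14 in males and -0.042 in females, beside -0.022 and -0.00099 over all.

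**Figure D1:**
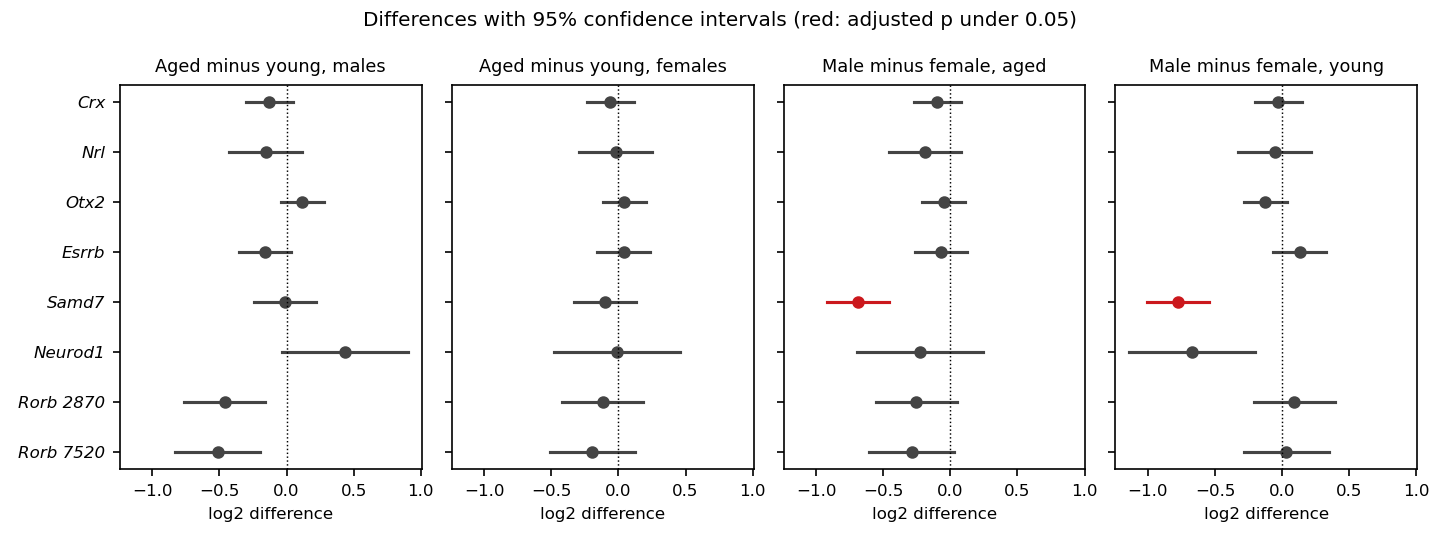
Log2 differences of the 8 tested probes (horizontal axis) in 4 comparisons, with aged minus young in males and in females and male minus female in aged and in young retina. Points are limma estimates from 4 arrays a group, bars are 95% confidence intervals, and red marks an adjusted p under 0.05: Samd7 at -0.69 in aged and -0.78 in young retina.

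Samd7 encodes a protein with a SAM domain that works with Polycomb complexes in mouse rods, where it keeps genes of other cell types silent. Its levels on the 4 male aged arrays were 7.57, 7.41, 7.65 and 7.45, and on the 4 male young arrays 7.41, 7.69, 7.64 and 7.38. The female aged arrays read 8.44, 7.89, 8.34 and 8.18, and the female young arrays 8.42, 8.24, 8.29 and 8.28. All 8 male arrays lay below all 8 female arrays: the highest male array, male young 2, was at 7.69 and the lowest female array, female aged 2, at 7.89. Male aged retina averaged 7.52 ± 0.11 and female aged retina 8.21 ± 0.24 (SD, n = 4 each), a log2 difference of -0.69 (SE 0.11, limma adjusted p = 0.00639), or 1.61-fold lower in males. Male young retina averaged 7.53 ± 0.16 and female young retina 8.31 ± 0.08, a difference of -0.78 (SE 0.11, limma adjusted p = 0.00218), or 1.71-fold lower in males. Averaged over both ages, a comparison added after these values were seen, the difference was -0.73 (SE 0.08, limma adjusted p = 4.13e-05), with 1 of the 8 probes called against 2.13% of all. In the order of group means, female young, female aged, male young and male aged, the step between female aged and male young is the one wider than the spread of the arrays. In whole retina, fewer cells of a type and less RNA per cell cannot be told apart. Among rod markers 0 of 5 were called for sex at either age, with medians of -0.057 in aged and -0.0065 in young retina and summed linear levels of 43991 to 49212 in male aged, 44295 to 49995 in male young, 45182 to 52193 in female aged and 45960 to 49284 in female young retina. All 10 measured pigment epithelium markers lay above 0 for sex at both ages, with medians of 1.42 in aged and 0.64 in young retina. Of these markers 1 was called in aged and 0 in young retina, against 0.686% and 0.393% of all tested probes. Lens markers were above 0 for sex in 8 of 8 in aged retina (median 0.88, 0 called) and in 1 of 8 in young retina (median -0.26, 0 called), with summed linear levels of 40730 to 58343 in male aged, 37881 to 63315 in male young, 20434 to 53301 in female aged and 47729 to 54271 in female young retina. Cone markers were below 0 in 5 of 5 in aged retina (median -0.13, 0 called) and in 3 of 5 in young retina (median -0.032, 0 called). The part of these cells in the Samd7 values was not tested.

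The sex difference of Samd7 was seen on every slide that held both sexes. In aged retina the difference was -0.59 on slide 1, between 1 male and 2 female arrays, and -0.73 on slide 4, between 1 and 1. The aged male array on slide 1 was male aged 1, given as 12 months. In young retina the difference was -0.73 on slide 2, between 1 male and 1 female array, and -0.73 on slide 3, between 2 male and 1 female. With slide as a fixed block the aged difference was -0.66 and its adjusted p 0.0504, and with only the 2 groups compared in the fit it was -0.69 with an adjusted p of 0.0616, and neither passed the threshold. The call in young retina was kept under all 11 alternatives and with each of the 16 arrays left out in turn. Without the male aged array given as 12 months the aged difference was -0.71 (adjusted p = 0.00919).

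Male and female arrays that do not overlap were common at a single age, and rare over both. Male and female arrays were apart for 1 of the 8 probes, Samd7, in aged retina, against 6.77% of all tested probes (3.91% with males lower), and for 1 in young retina, against 7.66% (3.92% with males lower). Taking all 8 arrays of each sex, 0.593% of all probes were apart and 0.406% had males lower. Lower in males and called at both ages were 26 probes, or 0.173%. Samd7 lies on chromosome 3, an autosome, and the calls were not limited to the sex chromosomes. Of 103 probes called for sex in aged retina 12 were on X or Y and 91 on autosomes, and 73 of the autosomal ones were lower in males. In young retina 59 were called, 11 on X or Y and 47 on autosomes, 39 of these lower in males. Autosomal probes called at both ages in the same direction numbered 21, of which 20 were lower in males, Samd7 among them. The nearest genes with a tested probe on either side of Samd7, by RefSeq order, were not called. Mynn, a zinc finger gene, differed by -0.0031 in aged and -0.097 in young retina (adjusted p = 0.993 and 0.616), and Sec62, a gene of protein translocation into the endoplasmic reticulum, by -0.080 and 0.025 (adjusted p = 0.88 and 0.952).

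**Figure D2:**
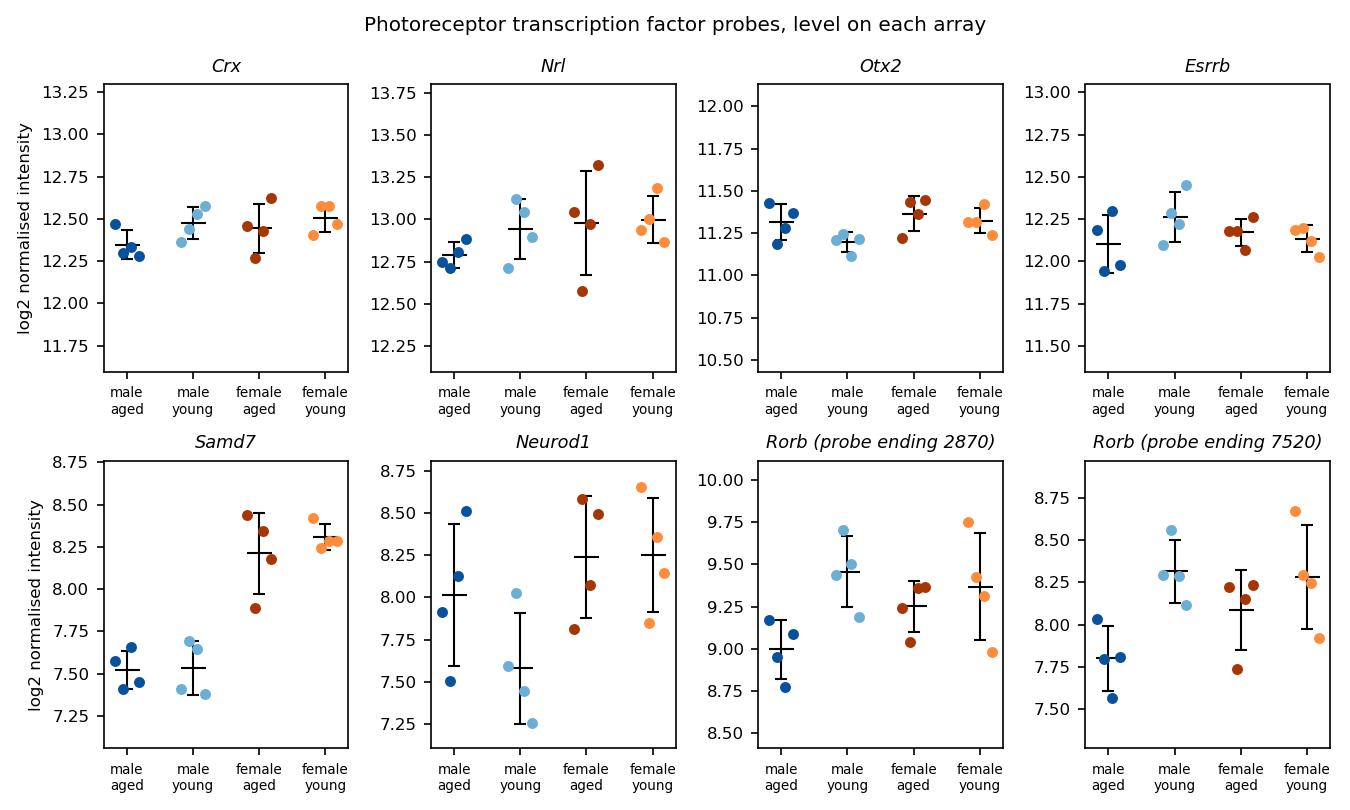
Log2 normalised intensity (vertical axis) of the 8 tested probes on each of the 16 arrays, by group, with male aged and male young left of female aged and female young. Points are arrays, and bars are the mean and SD of 4. All 8 male arrays of Samd7 lie between 7.38 and 7.69 and all 8 female arrays between 7.89 and 8.44, while the groups overlap for Crx, Nrl, Otx2 and Esrrb.

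Otx2 is the homeodomain factor at the head of the cascade, made in photoreceptors, bipolar cells and the pigment epithelium. Its probe read 11.43, 11.18, 11.28 and 11.37 in male aged retina, against 11.21, 11.25, 11.11 and 11.22 in male young retina. In female aged retina it read 11.22, 11.44, 11.36 and 11.44, against 11.32, 11.32, 11.42 and 11.24 in female young retina. The aged and young arrays overlap in both sexes. The difference with age was 0.12 in males (SE 0.08, limma adjusted p = 0.498) and 0.042 in females (SE 0.08, adjusted p = 0.959), and that between the sexes -0.049 in aged and -0.13 in young retina (adjusted p = 0.858 and 0.427). Of 14 pigment epithelium markers 10 were measured, and all 10 were higher in male aged than in male young retina, with a median of 1.37. In males 5 of them were called, against 0.992% of all tested probes. In females 7 of these markers were higher and 3 lower in aged retina, with a median of 0.72 and 0 called, against 0.633% of all. Their summed linear level was 7172 to 11232 on male aged arrays, 2119 to 4455 on male young, 1724 to 3802 on female aged and 1170 to 8581 on female young arrays. Rgr, an opsin of that tissue with the largest difference among them, averaged 10.90 ± 0.37 in male aged and 8.22 ± 0.82 in male young retina. Mitf and Tyr were on the array but detected on too few arrays to be tested. Bipolar cell markers were below 0 with age in 7 of 10 in males (median -0.038, 0 called). In females they were above 0 in 10 of 10 (median 0.16, 0 called). The part of these 2 cell types in the Otx2 level was not tested.

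Crx, a relative of Otx2 that switches on rod and cone genes, was bright on every array. It read 12.47, 12.30, 12.34 and 12.28 in male aged and 12.36, 12.44, 12.53 and 12.57 in male young retina. It read 12.46, 12.27, 12.43 and 12.62 in female aged and 12.41, 12.57, 12.57 and 12.47 in female young retina. All 4 groups overlap, and the whole range over 16 arrays, 12.27 to 12.62, is narrow. The difference with age was -0.13 in males (95% confidence interval -0.30 to 0.046) and -0.062 in females (-0.24 to 0.11), and with sex -0.097 in aged and -0.030 in young retina, with limma adjusted p-values of 0.498 to 0.949. Within slides the sign of the aged minus young difference in males varied, at 0.11 on slide 1 (1 array of each age) and -0.23 on slide 3 (2 of each). The aged male array on slide 1 was male aged 1, given as 12 months.

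Neurod1, a basic helix-loop-helix factor that mouse photoreceptors need to survive, had the widest spread of the 8 probes. Male aged arrays read 7.92, 7.51, 8.13 and 8.51, and male young arrays 7.59, 8.03, 7.45 and 7.26. Female aged arrays read 7.81, 8.58, 8.07 and 8.49, and female young arrays 8.66, 7.85, 8.35 and 8.14. Male young retina had the lowest mean, 7.58 ± 0.33, against 8.25 ± 0.34 in female young retina, but male young 2 at 8.03 lay above female young 2 at 7.85. The difference of -0.67 (SE 0.22) had an unadjusted p of 0.00787 and a limma adjusted p of 0.169. In aged retina the male minus female difference was -0.22 (adjusted p = 0.746), and aged males were 0.43 higher than young males (SE 0.22, adjusted p = 0.385). The low mean of male young retina thus did not pass the threshold against male aged or female young retina. In females aged and young retina differed by -0.012 (adjusted p = 0.997), and the interaction of age and sex was 0.45 (SE 0.31, adjusted p = 0.641). Within slides the young sex difference was -0.63 on slide 2 (1 male and 1 female array) and -0.50 on slide 3 (2 male and 1 female).

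Prdm1, also called Blimp1, holds developing photoreceptors away from the bipolar fate and is known mainly from the newborn mouse retina. Its probe ILMN_2744650 was detected on 0 of 16 arrays, and ILMN_2597923 on 1, female young 1, where its intensity was 8.1 with a detection p-value of 0.0439. Neither was tested, and no fold is given. Such probes were not well above background.

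Rorb, an orphan nuclear receptor that acts before Nrl in rod precursors and is also made in inner retinal cells, was read by probes ILMN_1252870 and ILMN_3137520, the second annotated to transcript variant 1. On ILMN_1252870 male aged arrays read 9.17, 8.95, 8.77 and 9.09, and male young arrays 9.44, 9.70, 9.50 and 9.19. On the same probe female aged arrays read 9.24, 9.04, 9.36 and 9.37, and female young arrays 9.75, 9.43, 9.31 and 8.98. The male age groups do not overlap, though male aged 1 at 9.17 and male young 4 at 9.19 are close, and the female groups do overlap. The other probe, ILMN_3137520, gave the same picture: male aged arrays read 8.03, 7.80, 7.56 and 7.81, and male young arrays 8.29, 8.56, 8.29 and 8.11. Its female aged arrays read 8.22, 7.74, 8.15 and 8.24, and its female young arrays 8.67, 8.29, 8.24 and 7.92.

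The Rorb difference with age in males was -0.46 on ILMN_1252870 (SE 0.14, unadjusted p = 0.005, limma adjusted p = 0.145) and -0.51 on ILMN_3137520 (SE 0.15, unadjusted p = 0.00325, adjusted p = 0.122). Neither was called, though both probes point down. In females it was -0.12 (adjusted p = 0.936) and -0.20 (adjusted p = 0.889), and for the mean of both sexes -0.29 (adjusted p = 0.233) and -0.35 (adjusted p = 0.125). The interaction was -0.34 and -0.32 (adjusted p = 0.587 and 0.626), so the data do not separate the male from the female value. These 2 probes are the ones of the 8 whose male age groups do not overlap, which held for 9.08% of all tested probes and, in the downward direction, for 5.21%. In females 0 of the 8 had groups that do not overlap, against 3.9% of all. Within slides the male values were -0.26 on slide 1 and -0.48 on slide 3 for the first probe, and -0.26 and -0.52 for the second. Slide 1 held 1 male array of each age, the aged one being male aged 1, given as 12 months, and slide 3 held 2 of each. In females the first probe gave -0.39 on slide 2 and 0.053 on slide 4, each between 1 aged and 1 young array. With array weights the second probe passed the threshold in males (-0.49, adjusted p = 0.0457), and without male aged 1 both probes gave -0.52 and -0.59 (adjusted p = 0.112 and 0.0745). The pigment epithelium markers given with Otx2 were higher with age in 10 of 10 in males and in 7 of 10 in females. Microglial markers were higher in aged males, with 9 of 9 above 0 and 4 called, against 0.992% of all tested probes. Their summed linear levels were 550 to 695 in male aged and 395 to 438 in male young retina. In females 9 of 9 were also above 0 and 5 were called, against 0.633% of all. The sums there were 501 to 738 in female aged and 373 to 427 in female young retina. The median difference with age was 0.56 in females and 0.40 in males. Among inner retinal markers, 4 of 5 of amacrine and horizontal cells were above 0 with age in males (median 0.053) and 3 of 5 in females (median 0.025). Ganglion cell markers were below 0 in 4 of 5 in males (median -0.082) and 4 of 5 in females (median -0.15). Of these 2 lists 0 were called with age in either sex, and bipolar markers are given with Otx2. The part of all these cell types in the Rorb values was not tested. Over 16 arrays the probes followed each other at a Pearson correlation of 0.966.

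**Figure D3:**
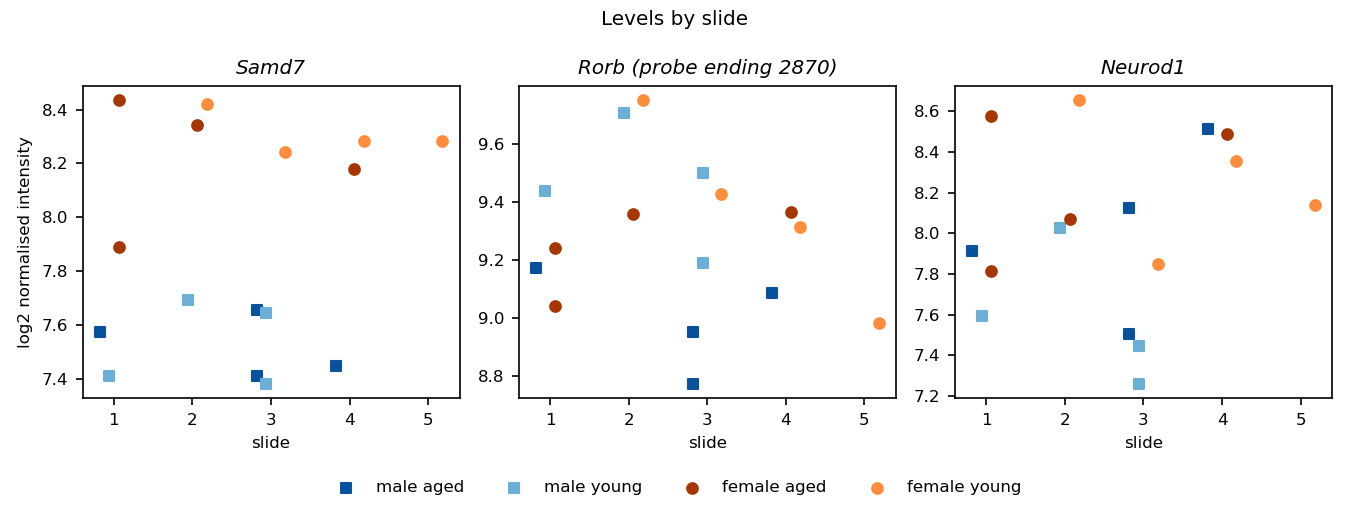
Log2 normalised intensity of Samd7, Rorb (ILMN_1252870) and Neurod1 (vertical axes) by slide (horizontal axis), with squares for male and circles for female arrays and darker shades for aged ones. Male arrays of Samd7 lie below female arrays on each of slides 1 to 4, and slide 5 holds female young 4 alone.

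Nrl, the Maf family factor that decides for rods, stood at 12.75, 12.71, 12.81 and 12.89 in male aged retina and at 12.71, 13.12, 13.04 and 12.90 in male young retina. In female aged retina it stood at 13.04, 12.57, 12.97 and 13.32, and in female young retina at 12.94, 13.00, 13.19 and 12.87. Female aged retina held both the lowest and the highest of the 16 arrays, and all groups overlap. With age Nrl differed by -0.16 in males (SE 0.13, limma adjusted p = 0.607) and by -0.022 in females (SE 0.13, adjusted p = 0.988). The male minus female difference was -0.19 in aged and -0.055 in young retina (adjusted p = 0.59 and 0.864).

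Nr2e3, the orphan nuclear receptor that Nrl switches on and that represses cone genes in mouse rods, was detected on 0 of 16 arrays by its probe ILMN_1225079. Its intensities ran from -4.6 to 2.2, so no group can be set against another, although rod markers were bright on the same arrays. Thrb, the cone factor, was likewise detected on 0 of 16 arrays by ILMN_2698682, with intensities from -4.8 to 2.8. A probe that does not light up gives no level of the gene, and whether these probes cover the retinal transcripts was not examined here.

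Esrrb, an orphan nuclear receptor downstream of Nrl that supports rod survival in mice, read 12.19, 11.94, 12.30 and 11.98 in male aged and 12.09, 12.29, 12.22 and 12.45 in male young retina. It read 12.18, 12.18, 12.07 and 12.26 in female aged and 12.19, 12.20, 12.12 and 12.03 in female young retina. The male age groups overlap between 12.09 and 12.30, and the female arrays sit close together, between 12.03 and 12.26. The difference with age was -0.16 in males (SE 0.09, limma adjusted p = 0.443) and 0.039 in females (adjusted p = 0.971), and with sex -0.069 in aged and 0.13 in young retina (adjusted p = 0.827 and 0.509).

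Whether the change with age itself differs between the sexes was asked with the interaction term. It called 0 of the 8 probes, and 0% of all tested probes, in limma after correction, while at an unadjusted p under 0.05 it took 0 of the 8 and 9.34% of all. The 8 interaction values ran from -0.34 for Rorb on ILMN_1252870 to 0.45 for Neurod1, with SEs of 0.11 to 0.31, so differences of that size could not be resolved for the noisier probes. For Samd7 it was 0.087 (95% confidence interval -0.24 to 0.41).

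Known targets of these factors were read beside them, from lists drawn up with earlier results of these data known. Of 24 rod genes that Crx, Nrl and Nr2e3 act on 23 were measured, and 0 were called in any comparison by limma. At an unadjusted p under 0.05, 3 were lower and 0 higher with age in males, and 1 was lower and 0 higher with age in females, of 23 each, where 14.6% and 7.14% of all tested probes passed that level in either direction. The rod gene with the smallest p for age in males was Rdh12, a retinol dehydrogenase of photoreceptor inner segments, at 11.68 ± 0.09 in male aged and 12.03 ± 0.04 in male young retina (-0.35, SE 0.09, limma adjusted p = 0.083). Its interaction was -0.39 (adjusted p = 0.499). For sex in young retina it was Slc24a1, the rod exchanger of sodium, calcium and potassium, at -0.48 (SE 0.18, adjusted p = 0.217), and its value in aged retina was -0.34 (adjusted p = 0.452). In aged retina 20 of the 23 rod genes lay below 0 for sex, with a median of -0.086, where 51.8% of all tested probes did with a median of -0.0065, and in young retina 15 of 23 did with a median of -0.053, where 45.7% of all did with a median of 0.016.

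Of 20 cone genes 16 were measured, and 0 were called in any comparison by limma. At an unadjusted p under 0.05, 1 was lower with age in males and 1 higher with age in females, and for sex 1 was higher and 3 lower in aged retina and 1 higher and 0 lower in young retina. Over all tested probes that level was passed by 14.6%, 7.14%, 12.7% and 15.6% in the same comparisons. Gngt2, the gamma subunit of cone transducin, was 9.85 ± 0.11 in male aged and 10.17 ± 0.06 in male young retina (-0.32, SE 0.09, limma adjusted p = 0.0921). Gnb3, the beta subunit of cone transducin, was 11.20 ± 0.10 in female aged and 10.93 ± 0.13 in female young retina (0.27, SE 0.08, adjusted p = 0.229). Pde6c, the catalytic subunit of the cone phosphodiesterase, differed between males and females by 0.26 in young retina (SE 0.08, adjusted p = 0.15). In males 12 of the 16 cone genes lay below 0 with age, with a median of -0.13, where 55.9% of all tested probes did, and in females 8 of 16 did with a median of -0.0059.

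Of 38 regulators and partners of the 10 factors, such as cofactors, thyroid hormone genes and factors of other retinal fates, 28 were measured. None was called for age in either sex or for sex at either age by limma, and at an unadjusted p under 0.05, 0 were higher and 2 lower with age in males, 0 and 1 in females, 2 and 1 for sex in aged retina, and 4 and 1 for sex in young retina. These are counts of 28, beside 14.6%, 7.14%, 12.7% and 15.6% of all tested probes. Casz1, a zinc finger gene that guides retinal cell fate in mice, was 5.64 ± 0.14 in male young and 5.14 ± 0.23 in female young retina (0.49, SE 0.11, limma adjusted p = 0.06), opposite in sign to Samd7. Over both ages, the comparison added after the Samd7 values were seen, Casz1 was called, at 0.31 (SE 0.08, adjusted p = 0.0456). There 1 of the 28 was called, against 2.13% of all tested probes. Rxrg, the retinoid receptor that partners thyroid hormone receptor in cones, was 6.62 ± 0.35 in male aged and 6.10 ± 0.37 in female aged retina (0.52, SE 0.17, adjusted p = 0.192). Dio3, the enzyme that inactivates thyroid hormone, was 4.74 ± 0.38 in female aged and 5.17 ± 0.16 in female young retina (-0.43, SE 0.15, limma adjusted p = 0.419). In males its difference with age was -0.33 (SE 0.15, adjusted p = 0.313). The levels of Dio3, like those of Casz1, are not far above the mean of 4.26 of the undetected Nr2e3 probe. Ncor1, a corepressor of nuclear receptors, was 9.53 ± 0.07 in male aged and 9.79 ± 0.13 in male young retina (-0.27, SE 0.08, adjusted p = 0.145).

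**Figure D4:**
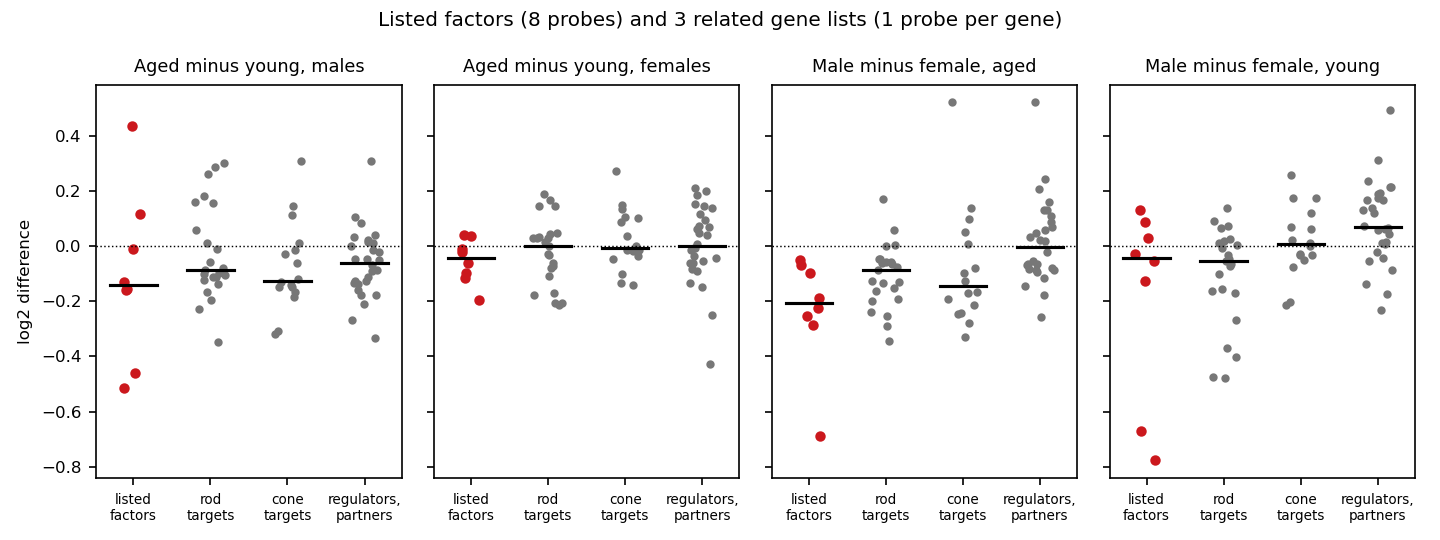
Log2 differences (vertical axis) of the 8 tested factor probes (red) and of the measured rod target genes, cone target genes and regulators and partners (grey, 1 probe a gene) in 4 comparisons. Black bars are medians: for age in males -0.14 for the 8 factor probes, -0.086 for rod and -0.13 for cone genes. The lowest points of the 2 sex panels are Samd7, at -0.69 and -0.78.

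The genes whose levels ran most like each factor were taken as the 2 highest Pearson correlations among 11025 genes over the 16 arrays, which share slides, normalisation and the group structure. For Samd7 they were Nfrkb, a subunit of the INO80 chromatin remodelling complex, at 0.967 and Trappc3, a subunit of a vesicle tethering complex, at 0.958. Both were lower in males, which choosing genes by likeness to Samd7 over the same arrays favours. Nfrkb differed by -1.12 in aged and -1.22 in young retina (limma adjusted p = 0.000147 and 4.05e-05), and Trappc3 by -1.27 and -1.23 (adjusted p = 0.00062 and 0.000864). The 3 genes lie on different chromosomes, 3 for Samd7, 9 for Nfrkb and 4 for Trappc3. For Neurod1 the most alike were Prpsap2 at 0.950 and Lrit2 at 0.942. Prpsap2 differed between the sexes by -0.65 and Lrit2 by -0.64 in young retina (limma adjusted p = 0.161 and 0.163), beside -0.67 for Neurod1. The choice by likeness favours such values too. Crx ran most like Rom1, an outer segment disc gene, at 0.874 and Sema7a at 0.873, and Nrl like Neurod2 at 0.864 and BC030476 at 0.864. Otx2 ran most like Ssb at 0.884 and LOC667250 at 0.871, Rorb like Wdr38 at 0.881 and BC065397 at 0.874, and Esrrb like Ssrp1 at 0.880 and Dpysl3 at 0.841. Among the factors themselves, over the same 16 arrays, Crx and Nrl correlated at 0.741 and Otx2 and Neurod1 at 0.747, while Samd7 stayed between -0.074 with Esrrb and 0.487 with Neurod1.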

How the data were processed

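RNA of 16 whole retina samples was labelled and hybridised per the labels' protocols. The authors deposited 1 background-subtracted intensity value per probe and array with its detection p-value, an array software export per the file headers. The array software is not given in the sources used here, nor is the annotation build. Another deposited table was the same intensity data times 1 factor per array (0.821 to 1.25) and served as an alternative.

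Intensities were normalised with neqc in limma 3.58.1 under R 4.3.3 (normexp whose negative controls are estimated through the detection p-values, offset 16, then quantile, then log2). A model with 4 group means and 12 residual degrees of freedom was fitted with lmFit and eBayes, two-sided. A gene with several probes is given by its brightest tested one, and each probe of the 10 factors is given. Scripts were tested on simulated data.

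The 10 genes, the lists, the motif words and the comparisons were chosen with earlier results of these data known. Likeness was ranked by Pearson correlation over 16 arrays. Alternatives were 11 other settings, with statmod 1.5.0 for slide correlation, and each of 16 arrays left out. Replicate numbers served as names: deviations of same-numbered arrays correlated at -0.054 on average over 24 pairs, from -0.34 to 0.38, and 4 pairs were over 0.1. A gene of the rod lists is not reported here by name.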

Additional observations from a re-analysis of the deposited data

How the results depend on the processing

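Of 186 counts of called factor probes, over 7 comparisons, 10 or 11 other settings and 16 arrays left out, 181 stayed and 5 changed. In aging males the count of 0 became 1 with array weights (Rorb ILMN_3137520). For the mean of both sexes it became 1 with slide as a fixed block (the same probe, -0.40, adjusted p = 0.0456), and without single arrays it ran from 0 to 1, with 1 without female young 4 (-0.41, adjusted p = 0.0387). For sex in aged retina the count of 1 became 0 with slide as a fixed block and 0 with only the groups compared. The cause was not tested. With single arrays left out the Samd7 calls held, up to an adjusted p of 0.0328 in aged and 0.0137 in young retina. The replicate block changed none of these counts, with Samd7 at an adjusted p of 0.0111 in aged and 0.00517 in young retina, while the number of all probes called with age in males was 79 with it and 149 without.

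Of 1488 single differences 36 changed sign, all of them uncalled. With median scaling these were Nrl with age in females at 0.0057, Samd7 with age in males at 0.016, Rorb ILMN_3137520 with sex in young retina at -0.00060, the Crx interaction at 0.034 and Esrrb with sex over both ages at -0.0029. With slide as a fixed block they were Nrl at 0.040 and Otx2 at -0.010 with age in females, Samd7 at 0.039 with age in males, Rorb ILMN_3137520 at -0.048 and Nrl at 0.019 with sex in young retina, and Esrrb at -0.014 with sex over both ages. As a random block slide gave 0.0048 for Nrl in females and 0.0048 for Samd7 in males, and the authors' values gave 0.018 for the Crx interaction. With arrays left out, age in females ran from -0.14 to 0.11 for Nrl, -0.24 to 0.010 for Rorb ILMN_1252870, -0.15 to 0.13 for Neurod1 and -0.17 to 0.011 for Samd7. Samd7 ran from -0.060 to 0.044 with age in males, -0.090 to 0.00077 for the mean of both sexes and -0.020 to 0.16 in the interaction. Sex in young retina ran from -0.064 to 0.0080 for Crx, -0.11 to 0.022 for Nrl, -0.039 to 0.22 for Rorb ILMN_1252870 and -0.089 to 0.16 for Rorb ILMN_3137520, and sex over both ages from -0.0022 to 0.059 for Esrrb.

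Counts over all probes, behind the shares given above, moved more. Age in females had 95 calls, 36 to 103 over the other settings and 59 (without female young 1) to 99 without single arrays. Age in males had 149, with 79 to 412 and 55 (without male aged 3) to 230 (without male aged 1), and the mean of both sexes 282, with 186 to 339 and 212 to 315. Sex in aged retina had 103, with 27 to 233 and 26 (without female aged 3) to 281 (without female aged 2), and sex in young retina 59, with 26 to 187 and 24 (without female young 3) to 236 (without male young 2). Sex over both ages had 320, with 151 to 680 and 160 to 511. Probes near background limit what can be said of Nr2e3, Thrb and Prdm1.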
